A study of Gallus gallus with 12 samples.

Results

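Of 2041 array clones measured in the bone marrow of hens of a layer and a broiler line, 127 (6.22%) stood on the same side of the line comparison on every one of 6 slides, with 34 higher and 93 lower in the broiler. The members were found by taking, on each slide, the broiler value minus the layer value, and by keeping the clones whose difference had the same sign on all 6 slides. Rows with control names and the 100 rows of highest average were left out first. The members were chosen by the sign of the line difference on each slide, so their line differences are a description and get no test. The table gives clone identifiers with no gene names, and 0 of the identifiers matched the chicken reference gene table, so no gene, pathway or cell type is named for any clone. The marker lists for red cells, heterophils, osteoclasts, bone matrix, fat and lymphocytes could for the same reason not be read.

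The layer samples came from female birds of a Hy-Line White Leghorn pedigree line and the broiler samples from females of a commercial Cobb-Cobb line. Each slide carried 1 sample of both lines, which makes 12 samples, 6 per line. The broiler sample was labelled with Alexa Fluor 647 and its layer partner with Alexa Fluor 555 on slides 1, 5 and 6, and the reverse was done on slides 2, 3 and 4. The hens were 60 weeks old by the sample titles but 15 weeks old by the text on tissue collection, a conflict that the labels leave unsettled. Layers ate freely and broilers were feed-restricted from 6 weeks, and effects of line and of diet cannot be told apart. The design note counts 3 samples of each line per dye and does not say whether the same birds were used with both dyes. Any p-value here reflects scatter among these samples alone, and part of that scatter may be technical.

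The tissue was crude marrow scraped from the whole length of the tibia. Chicken marrow holds the precursors of nucleated red cells, of thrombocytes and of heterophils, the avian counterpart of neutrophils, together with fat, vessels and bone-lining cells. In hens in lay the marrow cavity of the long bones also carries medullary bone, a spongy calcium store that osteoblasts build under estrogen and osteoclasts break down for eggshell formation. A White Leghorn is a small bird bred for egg number, and a Cobb bird is bred for fast growth of muscle. In such bulk tissue, fewer cells of a type and less RNA per cell cannot be told apart.

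The table held 15769 rows, of which 2143 had a value in every sample. Slides 2 and 3, of the same dye orientation, had the highest correlation of line differences among the 15 pairs of slides. It was r = 0.68 across the 2041 clones, and the lowest value of a pair was -0.29. Slides 1 and 5, also of one orientation, correlated at 0.43. Whether the shared orientation played a part was not tested. When slides 2 and 3 were averaged into 1 value, 51 clones were higher and 134 lower in the broiler on all 5 values. Using only the other 4 slides, 156 clones were higher and 224 lower.

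The counts over the 2041 clones ran from one direction to the other with a peak in the middle. On 3 of 6 slides the broiler was above the layer for 641 clones, on 4 slides for 433 and on 2 slides for 437. It was above on 5 slides for 129 clones and on 1 slide for 274. The 34 clones above on all 6 slides were 1.67% of the 2041, and the 93 above on 0 slides were 4.56%. These percentages are the result of the selection itself and carry no test.

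**Figure D1:**
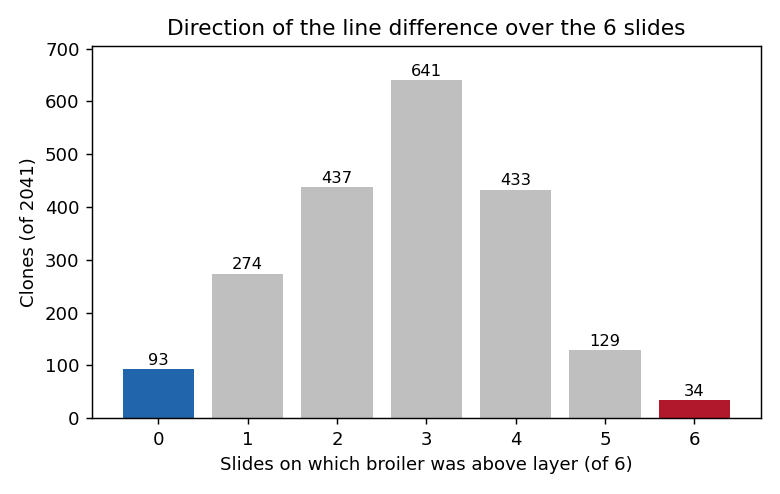
Number of clones (vertical axis, of 2041) by the number of slides on which broiler was above layer (horizontal axis, 0 to 6). The red bar holds the 34 clones above on all 6 slides and the blue bar the 93 below on all 6, while the grey bars are clones with mixed signs.

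The split between the directions depended on how the slides were centred. As deposited, 26.8% of the members were higher in the broiler. Median centring of each slide gave 47 higher and 72 lower clones, or 39.5% higher. Loess normalization gave 46 and 70, and quantile normalization 43 and 77, so that 39.7% and 35.8% were higher. The median difference over all clones of a slide lay between -0.033 and 0.0027 log2 as deposited, so more slide values lay below 0 than above before any clone was chosen.

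Of the 34 clones higher in the broiler, 28 kept their direction on every slide under all of loess, quantile and median centring, and of the 93 lower clones 57 did. The clones that did not keep it were mostly those with a slide close to 0: their smallest slide difference had a median size of 0.0023 log2 among the higher and 0.010 among the lower clones. The median mean difference of the clones that kept it was 0.15 log2 on the higher side and -0.12 on the lower side.

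Levels are given as log2 of a sample's intensity over the median spot of the same sample, so that a level of 1 is 2 times the median spot. The differences of the members were small. Over the 34 higher clones the mean difference of the 6 slides ran from 0.037 to 0.43 log2 with a median of 0.15, a ratio of 1.11. Over the 93 lower clones it ran from -0.93 to -0.034 with a median of -0.11, a ratio of layer over broiler of 1.08. The median size over all 2041 clones was 0.043. Since the members were picked for steady sign, a larger mean among them follows from the choice.

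Of the higher clones, 13 had a mean difference over 0.2 log2 and 0 reached a ratio of 1.5. Of the lower clones, 18 were beyond 0.2 log2 and 1 was beyond a ratio of 1.5. These sizes depended on the background assumed, whose true level is not known. With the dimmest spot of each slide subtracted, 7 higher and 12 lower clones were beyond a ratio of 1.5. The medians over the higher and lower clones were then 0.35 and -0.23 log2. After subtraction only the members were counted, not all clones, so the rise is not read as particular to the members. A difference of more than 0.05 log2 on every slide was seen for 11 higher and 23 lower clones, and of more than 0.1 for 5 and 7. More than 0.2 log2 on every slide was reached by 2 clones, both lower in the broiler. A steady sign was not the same as a sizeable difference. Of the 135 clones whose mean difference was beyond 0.2 log2, 31 were members (23%).

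The slides did not contribute equally to these sizes. Among the higher clones the median difference was 0.10 on slide 1, 0.11 on slide 2, 0.23 on slide 3, 0.12 on slide 4, 0.070 on slide 5 and 0.21 on slide 6. Among the lower clones it was -0.079, -0.078, -0.18, -0.092, -0.060 and -0.12 on slides 1 to 6. Slides 3 and 6 gave the larger medians in both directions, and slide 5 the smallest. Over all 2041 clones the median size was also largest on slides 6 (0.10) and 3 (0.099) and smallest on slide 5 (0.067). Larger sizes on slides 3 and 6 and the smallest on slide 5 were therefore not particular to the members. Slide 3 exceeded slide 6 in the members, most clearly among the lower clones (-0.18 and -0.12), but not over all 2041 clones. The SD over the 2041 clones was 0.27 on slide 3, 0.25 on slide 6, 0.23 on slide 4, 0.21 on slide 2, 0.20 on slide 5 and 0.19 on slide 1. Slide 3 held the largest difference of a clone for 39 of the 93 lower clones. Among the 34 higher clones slide 6 held it for 11, slide 4 for 9, slide 1 for 7 and slide 3 for 6. Slide 5 held the smallest difference for 32 of the lower and 8 of the higher clones. Over all 2041 clones slide 6 held the largest difference for 491, slide 3 for 466, slide 4 for 360 and slide 1 for 183. Slide 5 held the smallest for 434 of the 2041. These counts are a description and were not tested.

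**Figure D2:**
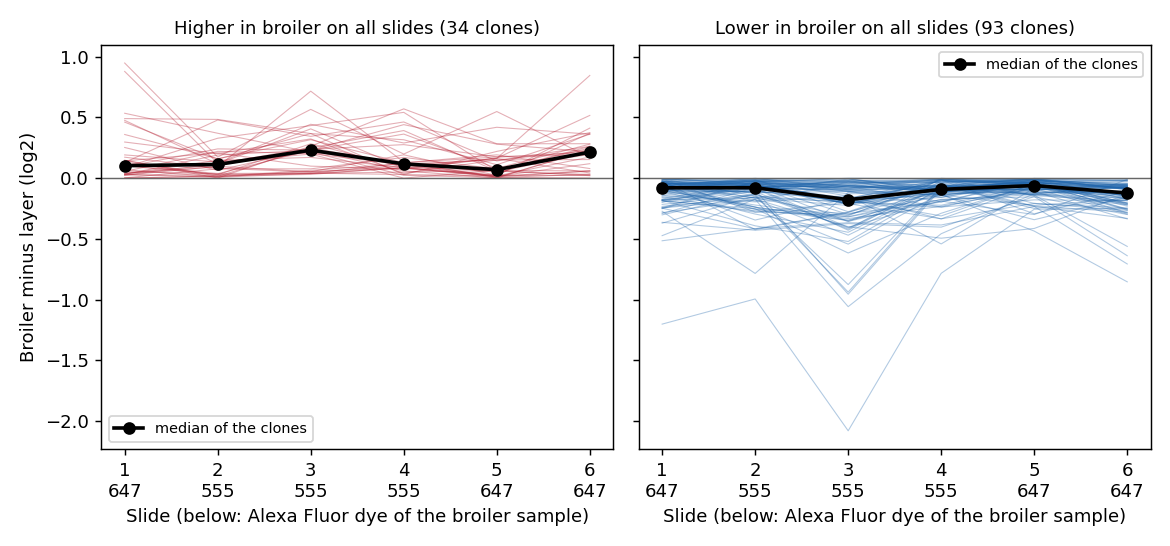
Broiler minus layer (vertical axis, log2) on each slide (horizontal axis, with the dye of the broiler sample below) for the 34 clones higher (left) and the 93 clones lower (right) in the broiler. Each thin line is 1 clone and the black line is the median, which lies between 0.070 and 0.23 on the left and between -0.18 and -0.060 on the right.

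Pat_3E7 had the largest mean difference on the higher side and also the largest smallest-slide difference. Its level in the broiler samples of slides 1 to 6 was 1.25, 0.78, 0.81, 0.48, 0.78 and 0.43, and in the layer samples 0.30, 0.61, 0.24, 0.28, 0.23 and 0.26. The layer sample of slide 2 stood above the broiler samples of slides 4 and 6, so the groups overlapped, although broiler was above layer within each slide. The mean difference was 0.43 ± 0.31 log2 (SD, n = 6 slides), a ratio of 1.35, and the slide values lay between 0.17 and 0.95. Slide 1 gave the largest value, and the mean without it was 0.33. With the dimmest spot of each slide subtracted the mean was 0.70.

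The 6 slide values of Pat-21_c12 came nearest to those of Pat_3E7 among all other eligible clones, with a root mean square difference of 0.12 log2. It had the second largest mean difference of the higher clones, 0.42 ± 0.25 (SD, n = 6 slides), and its slide values were 0.88, 0.12, 0.44, 0.29, 0.42 and 0.36. Both clones were highest on slide 1. The levels of the pair over the 12 samples correlated at r = 0.77. This neighbour, like the others below, was looked for after the values had been seen.

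C0004102_E4 had the second largest smallest-slide difference on the higher side. Its level in the broiler samples of slides 1 to 6 was 0.71, 1.42, 0.60, 1.32, 0.81 and 0.85, and in the layer samples 0.58, 0.94, 0.26, 0.86, 0.67 and 0.59. The samples of a slide moved together, with both samples of slides 2 and 4 high and both of slide 3 low, and the groups overlapped. The difference was 0.30 ± 0.15 log2 (SD, n = 6 slides). It averaged 0.18 where the broiler carried Alexa Fluor 647 and 0.43 on the others, so the size of this clone differed between the dye orientations while its sign did not. The nearest clone by slide values, Pat-20_c1, showed the same division, with 0.14 and 0.43.

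C0004103_I2 had the largest mean difference of all members. Its level in the layer samples of slides 1 to 6 was 1.80, 1.11, 2.33, 1.29, 0.23 and 1.32, and in the broiler samples 0.60, 0.11, 0.25, 0.51, -0.025 and 1.07. The layer sample of slide 5 was lower than 4 of the 6 broiler samples, and the broiler sample of slide 6 was close to the layer sample of slide 2, so the groups overlapped. The slide differences were -1.20, -0.99, -2.08, -0.78, -0.26 and -0.25, with a mean of -0.93 ± 0.68 (SD, n = 6 slides) and a ratio of layer over broiler of 1.90. As deposited, this was the only member beyond a ratio of 1.5. Without slide 3 the mean was -0.70.

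Pat_10B6 was the other clone below -0.2 log2 on every slide. Its level in the layer samples of slides 1 to 6 was 1.30, 0.48, 0.72, 0.99, 1.18 and 0.84, and in the broiler samples 0.78, 0.063, 0.35, 0.61, 0.95 and 0.14. The samples ranged widely between slides and the groups overlapped, but the difference within a slide was steadier, from -0.71 to -0.23, with a mean of -0.44 ± 0.16 (SD, n = 6 slides). The mean was -0.48 with the broiler in Alexa Fluor 647 and -0.39 in the other orientation. When the dimmest spot of each slide was subtracted as background, the mean was -0.67.

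Pat-22_d6 followed Pat_10B6 closely. Its slide differences were -0.36, -0.43, -0.37, -0.40, -0.15 and -0.64, against -0.51, -0.41, -0.37, -0.39, -0.23 and -0.71 for Pat_10B6, a root mean square difference of 0.076 log2. Over the 12 samples the levels of the pair correlated at r = 0.98, and in both the layer sample of slide 1 was the highest of the 12 and the broiler sample of slide 2 the lowest. The next clone nearest to Pat_10B6, Pat-18_b3, differed by 0.25 and was no member, since its value on slide 2 was 0.063. The files do not say whether clones with like values carry the same transcript.

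**Figure D3:**
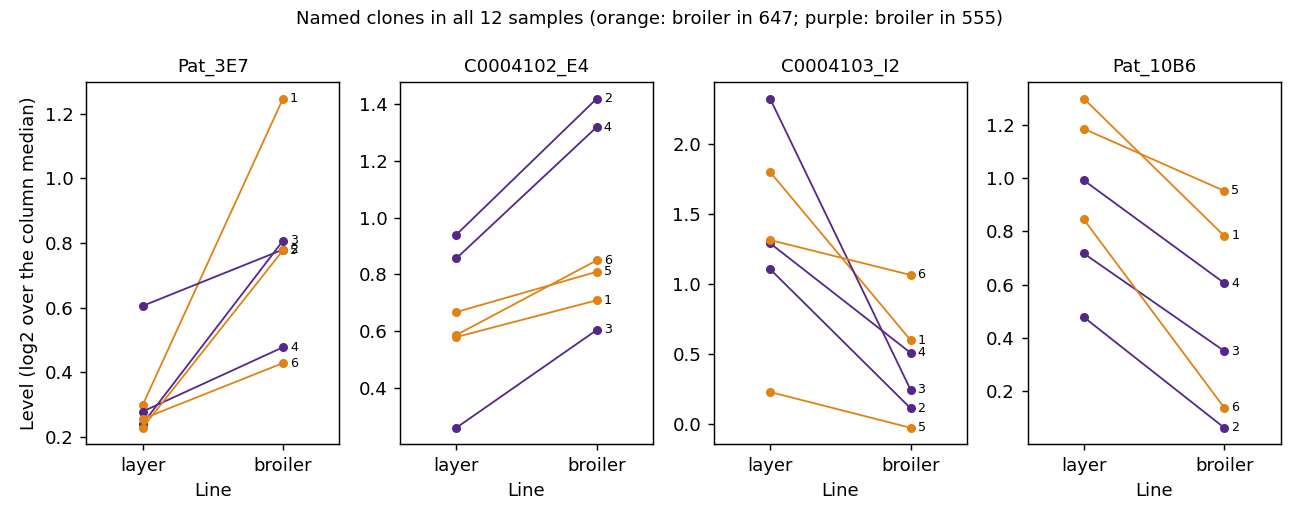
Level of 4 clones in all 12 samples (vertical axis, log2 over the column median, with its own range in each panel), with the layer and broiler samples of a slide joined by a line and the slide number at its right end. All 6 lines point up for Pat_3E7 and C0004102_E4 and down for C0004103_I2 and Pat_10B6, while the levels of the lines overlap in each panel.

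Overlap of this kind was the rule. For only 1 of the 127 members did all samples of one line lie beyond all samples of the other, which was also the only such clone among the 2041 (0.049%). That clone, C0004109_A10, was named because of this. Its level in the layer samples of slides 1 to 6 was -0.23, -0.29, -0.12, -0.23, -0.22 and -0.32, and in the broiler samples -0.52, -0.37, -0.52, -0.41, -0.34 and -0.45. The highest broiler sample, -0.342, lay just under the lowest layer sample, -0.324, and the difference was -0.20 ± 0.13 (SD, n = 6 slides). It was a dim spot, at 0.55 log2 above the dimmest clone of a slide on average.

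Beside the overlap stood a wide spread between slides. Among the higher clones the SD over the 6 samples of a line had a median of 0.20 in broiler and 0.16 in layer samples, beside a median difference of 0.15. Among the lower clones these SDs were 0.16 and 0.18, beside a median difference of 0.11. Over all 2041 clones they were 0.19 and 0.18, so a spread of this width was not particular to the members. The mean difference was larger than both SDs for 12 of the 34 higher and 19 of the 93 lower clones, beside 49 of the 2041. The direction of most members was therefore visible only within slides.

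The exchange of dyes gave both directions in each orientation by the construction of the rule, but not the sizes. The higher clones had a median of 0.13 log2 where the broiler carried Alexa Fluor 647 and 0.16 on the others. The lower clones had medians of -0.10 and -0.12. The means of the orientations differed in size by more than 2 times for 13 higher (38.2%) and 31 lower clones (33.3%), beside 1133 of the 2041 (55.5%). The rule used the same slide values, so nothing is read from this contrast.

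Between the dyes themselves, 160 of the 2141 clones differed in limma at an adjusted p of 0.05 (7.47%), and among the members 0 of 34 and 0 of 93 did. The count of 160 was not stable when a slide was left out. It was 1, 0, 2 and 4 when slides 1, 2, 3 and 5 were dropped in turn, but 167 without slide 4 and 128 without slide 6. Averaging slides 2 and 3 gave 2. The cause of these changes was not tested. A dye difference larger in size than the line difference turns the sign between the orientations, so the rule leaves such clones out. This makes calls rarer among the members without forcing them to 0, and nothing is read from the 0. The size of the dye difference had a median of 0.036 log2 among the higher, 0.025 among the lower and 0.055 among all 2041 clones. In the plot of the orientations only other clones lie in the upper left and lower right, where the sign of the line difference turned with the dyes. The rule keeps members out of these parts, so nothing is read from their absence there.

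**Figure D4:**
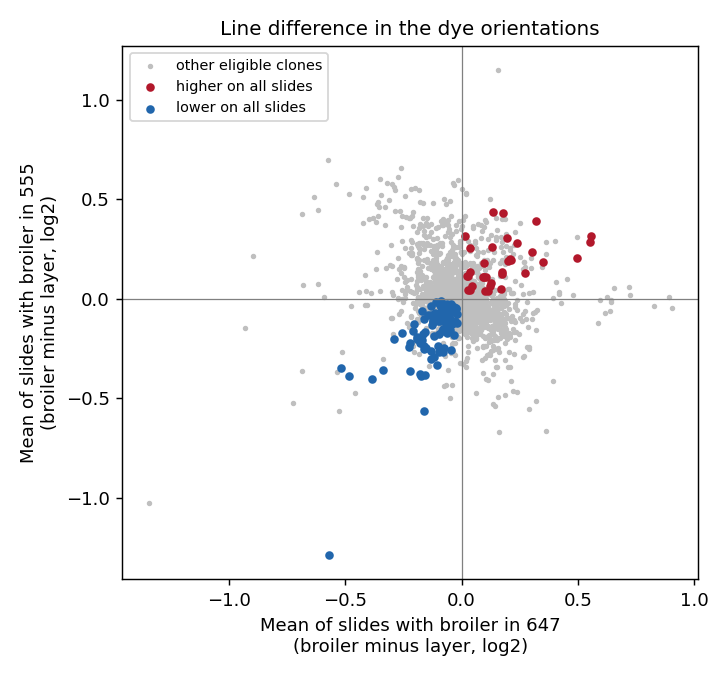
Mean line difference (broiler minus layer, log2) where the broiler carried Alexa Fluor 647 (horizontal axis) against that where it carried Alexa Fluor 555 (vertical axis), 1 point per clone. The 34 red points lie in the upper right and the 93 blue points in the lower left, as the rule demands, and the lowest blue point is C0004103_I2 at -0.57 and -1.29.

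The clones just at the edge of the rule show how little separates a member from a non-member. On the higher side the last clones inside had deciding slide values of 0.000281, 0.000853 and 0.00161 log2, and the first clones outside had -0.000451, -0.000846 and -0.0041. On the lower side the values were -0.000187, -0.000661 and -0.000717 inside and 0.000538, 0.000835 and 0.00133 outside. C0004106_E5, one of the clones barely inside, had a mean of 0.26 ± 0.19 (SD, n = 6 slides) and met the rule through a value of 0.0016 on slide 2.

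Among the 403 clones that missed the rule by 1 slide, slide 4 was most often the exception. It was the slide of the other sign for 33 of the 129 clones above 0 on 5 slides and for 74 of the 274 clones below 0 on 5. Slide 3 was the exception for 10 and 38 of them and slide 6 for 21 and 24. Leaving out slide 4 therefore gave 67 higher and 167 lower clones, the most for any slide left out on both sides. These are the members together with the clones for which slide 4 was the exception, so they restate the same counts.

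Some of the largest differences in the table were left out of the members by 1 slide. Of 4 clones with a mean beyond a ratio of 1.5 as deposited, only C0004103_I2 was a member. Pat-21_h5 had the largest mean difference of the 2041, -1.18 ± 0.68 (SD, n = 6 slides), with values of -1.80, -1.33, -1.80, -1.15 and -1.09 on slides 1, 2, 4, 5 and 6 and of 0.056 on slide 3. C0004113_F1 showed the same form, with values between -1.02 and -0.51 on those 5 slides, 0.20 on slide 3 and a mean of -0.62 ± 0.45. DT40subNB_2D3 lay between 0.13 and 1.70 on slides 1 to 5 and at -0.24 on slide 6. Both clones lower on 5 slides were above 0 on slide 3, the slide on which C0004103_I2 was furthest below 0.

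The members came from all 4 groups of identifiers. Of the higher clones, 16 had identifiers starting with Pat, 12 with C0004, 5 with DT40subNB and 1 with DKFZ426. Of the lower clones these were 34, 32, 23 and 4. The labels do not explain these prefixes; a B-cell line of the chicken is called DT40.

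As shares of the eligible clones, the higher members were 2.44% of 655 Pat, 1.78% of 674 C0004, 1.43% of 70 DKFZ426 and 0.779% of 642 DT40subNB clones, beside 1.67% overall. The lower members were 5.19% of Pat, 4.75% of C0004, 5.71% of DKFZ426 and 3.58% of DT40subNB clones, beside 4.56% overall. The DT40subNB share was the lowest of the 4 in both directions, while clones of this group had a larger median difference before selection, 0.056 log2 against 0.031 to 0.041 in the other groups. These shares are a description and were not tested.

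The members were spread over many plates, as read from the identifiers, but unevenly. The 34 higher clones lay on 25 plates with at most 3 on a plate, and the 93 lower clones on 48 plates with at most 6. The plate with 6 was C0004119, where 6 of 31 eligible clones were lower and 0 higher, with mean differences from -0.28 to -0.084 log2. On plate C0004106 there were 3 members in each direction among 29 eligible clones. On the 62 plates with at least 15 eligible clones the share of members ran from 0 to 23.5%, the highest on Pat-20 with 4 of 17, and 11 of these plates held none. These plates were named after their values were seen, and the shares were not tested.

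Spot brightness depends on the probe as well as on the transcript, so it is used here only to say how far a spot stood above the dimmest clone of its slide. The median of the mean over 6 slides was 0.83 log2 above the dimmest clone for the higher, 0.77 for the lower and 0.83 for all 2041 clones. Within 2-fold of the dimmest clone lay 23 of the 34 higher (67.6%), 58 of the 93 lower (62.4%) and 1226 of all 2041 clones (60.1%). Background that remains in such spots makes a ratio smaller than it was in the RNA, and how background was treated here is not stated in the labels.

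In 4 equal classes of brightness, from the dimmest to the brightest, the higher members numbered 7, 10, 10 and 7 and the lower members 21, 30, 18 and 24. Members were thus spread over all 4 classes, and their sizes grew with brightness. The lower members had median differences of -0.080, -0.081, -0.11 and -0.19 log2 in that order, and the higher members 0.11, 0.13, 0.17 and 0.25. Over all eligible clones the median size also grew, from 0.032 to 0.079, and the median SD over slides from 0.082 to 0.22.

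Above the brightest member lay 97 eligible clones. By this cut they hold no member, so nothing is read from that. The brightest member, DT40subNB_3B8, stood 3.18 log2 above the dimmest clone and was lower in the broiler by 0.21 ± 0.17 (mean difference -0.21, SD, n = 6 slides). The 97 clones above it had a median difference of 0.068 log2 in size, beside a median SD over slides of 0.29. The scatter between slides was thus wider than the line difference here, as it was over all 2041 clones (median SD 0.12, median size 0.043).

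**Figure D5:**
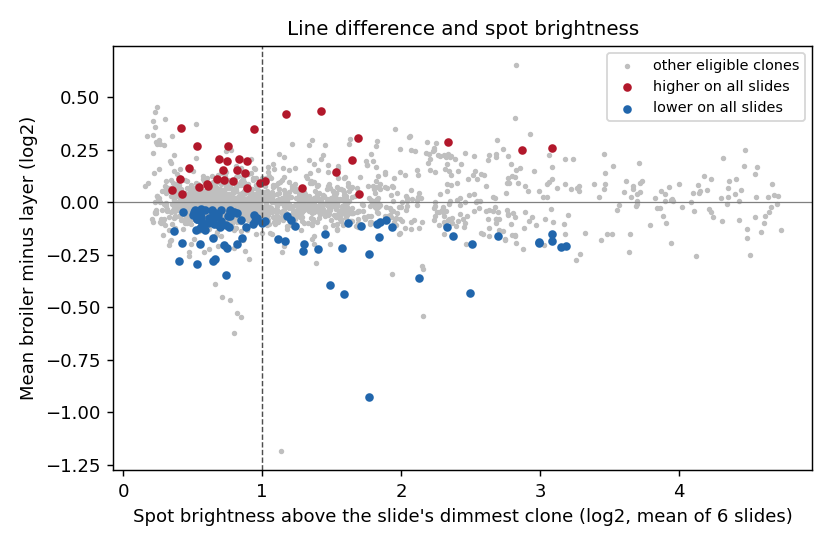
Mean broiler minus layer difference (vertical axis, log2) against spot brightness above the dimmest clone of the slide (horizontal axis, log2, mean of 6 slides), 1 point per clone. The dashed line marks 2-fold above the dimmest clone, and 81 of the 127 members lie to its left.

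The fit over all 2141 clones with values, with the dye orientation as a term, called 0 clones for the line difference (limma, adjusted p of 0.05, 0%), and 243 clones had an unadjusted p under 0.05. With the slide as a random block in place of the within-slide difference, limma called 40 clones (1.87%), 19 higher (0.887%) and 21 lower (0.981%) in the broiler. Of these, 12 were among the 34 higher and 15 among the 93 lower members. Both fits use the values that chose the members, so nothing is read from that overlap. The lowest adjusted p of a member in the first fit was 0.168 in both directions.

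Within each direction every pair of slides had a positive r, but its size varied widely. Among the 93 lower clones the 15 pairs of slides correlated at r = 0.18 to 0.76, and slides 1 and 3, of opposite dye orientation, gave the highest value. On those slides C0004103_I2 lay far out, at -1.20 and -2.08, beside medians of -0.079 and -0.18. Among the 34 higher clones the pairs ran from 0.037 to 0.82, the highest between slides 1 and 5. There Pat_3E7 (0.95 and 0.55) and Pat-21_c12 (0.88 and 0.42) lay far above the medians of 0.10 and 0.070. Such r values can rest on single clones, and they were not computed without these. Over all 2041 clones slides 1 and 3 correlated at 0.17. The clones share their slides and samples, so these are descriptions and have no p.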

How the data were processed

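Marrow RNA was hybridised in 2 colours on 6 cDNA slides, which gives 12 labelled samples. The labels do not settle how many birds they came from. The main fit took the 6 slides as independent, which would not hold if the same birds were used with both dyes. Each deposited column holds natural log intensities of a single channel, centred near 0. The log base was found from the values: with base e, 100% of the 60 lowest sums of both channels on each slide were logs of whole-number products within 0.02, against at most 23.3% with bases 2 and 10. How slides were scanned, corrected and normalized, and why 13626 rows are blank, is not stated in the labels. All values were converted to log2.

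Samples were grouped by title. The slide pairs its samples by design; deviations from the line means correlated at 0.43 to 0.84 within slides. The ratio was fitted with limma 3.58.1 in R 4.3.3, with the dye orientation as a term and Benjamini-Hochberg adjustment over 2141 clones. Intensities give no counts, and the number of slides limits the precision. The fit was run on simulated data with independent slides and line differences larger than those of most members. That run does not show how the fit handles differences as small as most of those here. The members and lists were chosen with earlier results of these data known. Clones were named by the largest mean and the largest smallest-slide difference in each direction; others were named after their values were seen. Alternatives were loess (span 0.3), quantile and median normalization, filters, block and dye terms, and each slide left out.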

Additional observations from a re-analysis of the deposited data

Results flagged for a closer look

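In 1 of 14 sets of 6 values examined for the named clones and the medians of the members, 1 value was separated from its neighbours by more than Dixon's 95% limit. Chance alone passes that limit in about 1 in 20 sets. The level of Pat_3E7 in the layer sample of slide 2 was 0.61, while the other 5 layer samples lay between 0.23 and 0.30. The broiler sample of that slide, at 0.78, was not apart from the other broiler samples.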

How the results depend on the processing

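The counts of 34 higher and 93 lower clones became 11 and 23 with a difference of at least 0.05 log2 on every slide, and 156 and 224 without slides 2 and 3. With 1 slide left out they were 44 to 67 and 117 to 167, since fewer slides must share a sign. They stayed within 1.5 times under the 3 normalizations, without the dimmest of the 4 brightness classes (27 and 72), with the 100 rows of highest average (35 and 94) and with slides 2 and 3 averaged. Subtracting the dimmest spot cannot change a sign and left 34 and 93. The line difference gave 0 clones in the other fits, the one with no replicate block included, except 40 with the slide as a random replicate block. Instead of 160 clones, the dye comparison gave 95 after loess, 84 with quantile normalization, 282 under the random replicate block, 0 with no replicate block and 2 when slides 2 and 3 were averaged. It gave 0 to 167 with 1 slide left out, and 1, 0, 2 and 4 when slides 1, 2, 3 and 5 were dropped in turn; the cause was not tested. The mean differences of Pat_3E7, C0004102_E4, C0004103_I2 and Pat_10B6 kept their sign in all 11 settings run. The slide values of each of these clones share a sign, so only the 3 normalizations could have turned it. Means of other clones named in the text were not run through these settings. Under all 3 normalizations Pat-21_c12, Pat-20_c1, Pat-22_d6, C0004109_A10 and DT40subNB_3B8 kept their common sign on every slide. C0004106_E5 lost its common sign under at least 1 normalization. The fits kept the 100 rows of highest average, so that alternative was run by leaving them out. Spots near the dimmest limit what small ratios can show. Averaging slides 2 and 3, leaving both out, subtracting the dimmest spot in the counts of members and fitting without the 100 rows were added once the data were known.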
